A study of Mus musculus with 11 samples.

Results

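Solute carriers are the membrane proteins that move amino acids, sugars, metabolites, nucleosides and ions across the plasma membrane and the membranes of organelles, and their gene symbols begin with Slc and a family number. Their genes are described here by H3K27ac, that is, histone H3 acetylated at lysine 27, which active promoters and enhancers carry. The members are all regions of the authors' deposited table of H3K27ac whose gene symbol matches this pattern, 956 of 56342 regions, which belong to 200 of the 12081 genes named in that table. A further gene of the same pattern, with 20 regions, was left out by the rule. Of the 200 symbols, 2 (Slc9a3r1 and Slc7a6os) name proteins that are not carriers themselves.

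The cells were Beko, a mouse pre-T cell line, that is, a line of T-lineage precursors. They were treated for 24 h with 0.01 mg/ml apicidin, with 10 mg/ml DAPT, or with DMSO alone as the control, doses as labelled. The labels do not say whether these are final or stock concentrations. Apicidin inhibits histone deacetylases and is labelled as an inhibitor of HDAC3. DAPT is a gamma-secretase inhibitor (GSI), which blocks the cleavage that activates Notch receptors. H3K27ac was profiled by chromatin immunoprecipitation and sequencing in 2 libraries per condition, and RBPJ, the DNA-binding factor of the Notch pathway, in 2 libraries of DMSO cells, with 3 inputs among the 11 libraries. The labels do not say whether the 2 libraries of a condition are separate cultures, and p-values therefore cover only the spread between libraries, which may be technical.

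Of 15 marker genes of the T lineage, all 15 had a region, whereas 4 of 7 markers of B cells had one (none at Blnk, Ms4a1 or Pax5), 2 of 7 of myeloid cells (none at Cebpa, Csf1r, Lyz2, Mpo or Spi1), 3 of 7 of erythroid cells and megakaryocytes, and 6 of 9 of fibroblasts and epithelium. By strongest region, that is, the region of highest read count assigned to a gene, 6 T-lineage markers were called higher and 4 lower with apicidin in the authors' deposited table, and 2 higher and 6 lower with GSI. Over all genes by strongest region, 12% were higher and 33.5% lower with apicidin, and 7.74% and 6.8% of those tested with GSI. With apicidin 1 B cell marker and 1 myeloid marker were lower and none higher, no erythroid or megakaryocyte marker was called, and 2 fibroblast or epithelial markers were higher and 3 lower. With GSI 1 of the last list was lower and no other of these markers was called (DESeq2). At an unadjusted p under 0.05 with GSI, 1 B cell marker was also lower (DESeq2). At that threshold 1 erythroid or megakaryocyte marker and 1 fibroblast or epithelial marker were higher. Among the T-lineage markers Notch1 fell by 0.77 ± 0.05 (standard error, SE) with GSI on the log2 scale (adjusted p = 1.52e-50), and Ptcra, a Notch target that encodes a chain of the pre-T cell receptor, fell by 1.01 ± 0.06 (adjusted p = 4.28e-60) in the authors' deposited table.

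A proliferating T cell raises its uptake of amino acids, glucose and nucleosides, and surface carriers set the supply that growth signalling through mTORC1 senses. Many amino acid carriers are also induced when amino acids run short or protein folding is stressed, through the transcription factor ATF4, which binds an amino acid response element near their genes. Carriers of the mitochondrial inner membrane and of the Golgi instead connect compartments within the cell.

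The table used here holds no value per library, so each region has 1 base mean (the mean normalised read count over libraries) and, for each treatment, a log2 fold change taken to be against DMSO, with its SE over 2 libraries per condition. A region is called higher or lower where the authors' DESeq2 adjusted p is under 0.05, and the depth of each library is unknown. The solute carrier regions had a median base mean of 59.0 in the authors' deposited table, against 61.3 for all regions, and 12.4% of them covered a start site, against 14.0%. Of the 200 genes, 60 had 1 region, the median was 3 regions, and the 23 genes with at least 10 regions held 418 of the 956. At least 1 region covered a start site for 117 genes. Precision followed strength, since in the authors' deposited table the median SE with apicidin was 0.182 for the 467 members that reached the median base mean over all regions and 0.431 for the 489 under it. Because counts were normalised by the authors, higher and lower are relative to the other regions.

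With apicidin, 86 of the 956 regions were called higher and 131 lower in the authors' deposited table. Over all regions 9.69% were called higher and 14.1% lower, 23.8% in all, so the share of called members, 22.7%, was near the background. The median log2 fold change of the members was -0.09, against 0.0040 over all regions of the authors' deposited table. With 0 set at the median of the stronger regions, -0.10 (called centring below), 109 members were higher and 89 lower, and with the trend of fold change over base mean subtracted 101 and 100, so the larger side depended on this choice. Counted once per gene by the strongest region, 30 genes were higher and 58 lower as deposited, with backgrounds of 12% and 33.5% (45.5% in all). On centring 41 genes were higher and 38 lower, and with the trend subtracted 42 and 34. At least 1 region was called higher for 54 genes and lower for 77, and 14 genes had both. These last counts depend on how many regions a gene has, and the share over all genes was not counted.

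With GSI, 420 of the 956 regions had an adjusted p in the authors' deposited table, all with a base mean of at least 72.1, and the other 536 are untested. Of the tested members, 28 were called higher and 24 lower there, against 6.62% higher and 7.17% lower over all tested regions (13.8% in all). By strongest region, 12 of 166 tested genes were higher and 12 lower, with backgrounds of 7.74% and 6.8% (14.5% in all). At least 1 region was called higher for 17 genes and lower for 18, again with no share over all genes counted. For 34 genes no region was tested with GSI.

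Both comparisons share the DMSO libraries, so the 2 fold changes of a region are set side by side. The apicidin fold minus the GSI fold was tested for every region, and the members were above 0 at 24 regions and below it at 51, with backgrounds of 3.01% and 5.6% (8.61% in all). On centring 35 were above 0 and 34 below. The SE of the difference assumes a correlation of 0 between the folds, and with 0.5 instead, as shared controls can give, 69 were above 0 and 128 below.

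**Figure D1:**
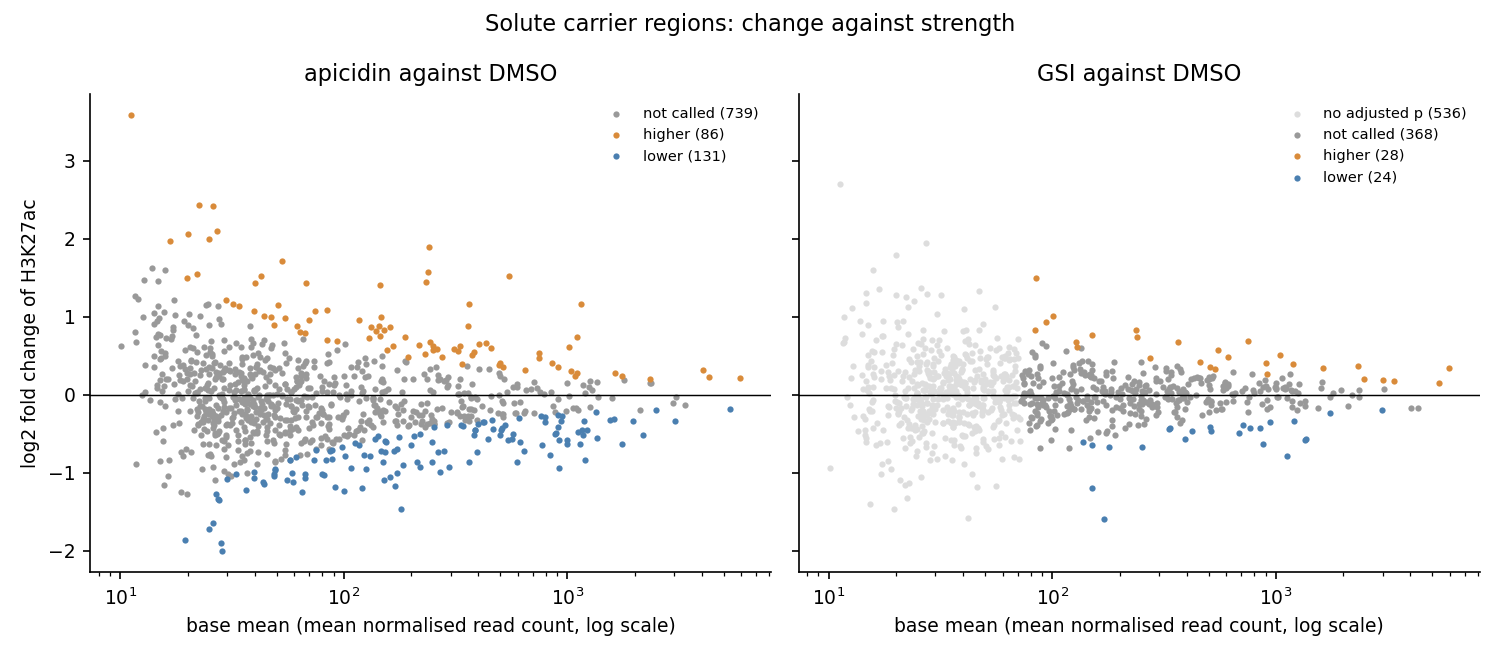
Log2 fold change of H3K27ac against DMSO (vertical axis) over base mean (mean normalised read count, log scale) for the 956 solute carrier regions, 1 point per region, with apicidin and GSI in separate panels. With apicidin 86 points are called higher and 131 lower, and with GSI 28 and 24, while 536 regions of low base mean have no adjusted p for GSI.

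The members split by place much as the whole table did. Of the 119 member regions that covered a start site, 12 were higher and 45 lower with apicidin in the authors' deposited table, where 8.01% and 39.4% of all such regions were (47.4% in all). Their median log2 fold change was -0.23, against -0.24 over all start-site regions of the authors' deposited table. Centring left 20 higher and 26 lower, and subtracting the trend 21 and 25. Within 10 kb of a start site but not over it, 33 of 342 members were higher and 27 lower with apicidin, beside 8.89% and 7.37% of all such regions of the authors' deposited table (16.3% in all). Farther away 41 of 495 were higher and 59 lower, beside 10.7% and 11.8% (22.5% in all). For both distances together, 74 of 837 were higher and 86 lower as deposited, but 89 and 63 on centring. With GSI, 7 of 114 tested start-site members were called higher and 5 lower, against 5.25% and 4.36% of all tested start-site regions of the authors' deposited table (9.61% in all). Subtracting the trend turned this to 4 higher and 7 lower. Within 10 kb, 6 of 125 tested members were higher and 8 lower with GSI, beside 5.46% and 5.14% (10.6% in all), and farther away 15 of 181 were higher and 11 lower, beside 8.22% and 10.2% (18.5% in all), in the authors' deposited table.

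The members were grouped into 13 roles by family number, so the counts of the amino acid group include Slc7a6os and those of the exchangers Slc9a3r1. Among the 10 groups of 20 or more regions, zinc carriers had the highest share of regions lower with apicidin, and monocarboxylate, citrate and sulphate carriers the lowest. With GSI, organic ion carriers and amino acid carriers had the highest shares called higher. No group was tested against the others, and several counts rest on 1 gene with many regions.

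**Figure D2:**
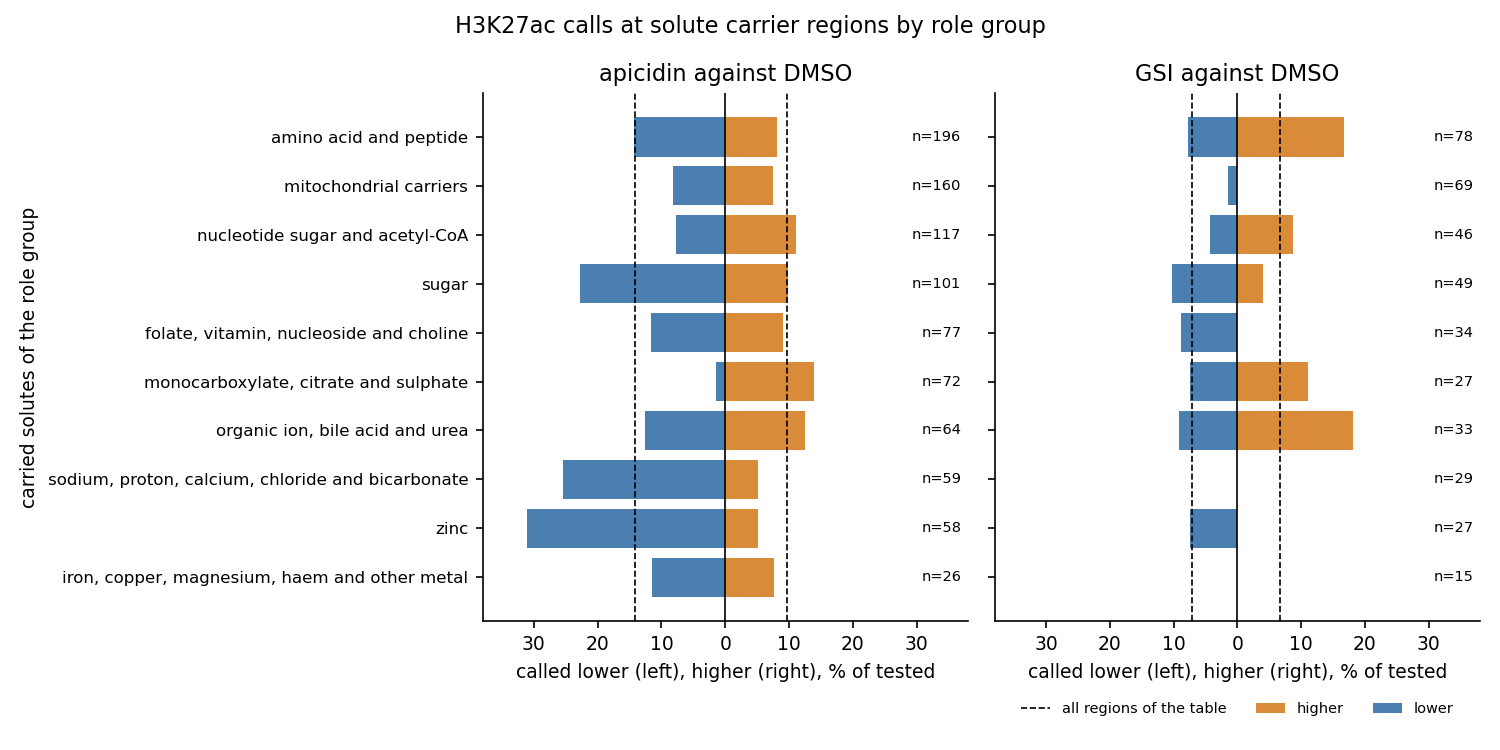
Share of H3K27ac regions called lower (bars to the left) or higher (bars to the right), in percent of the regions tested, for the 10 role groups with at least 20 regions, with apicidin and with GSI. The dashed lines mark the shares over all regions of the table, 14.1% lower and 9.69% higher with apicidin, and 7.17% and 6.62% with GSI.

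The amino acid and peptide carriers (196 regions of 35 genes) were lower at 28 regions and higher at 16 with apicidin in the authors' deposited table, where 14.3% lower stands beside the background of 14.1%, but on centring 24 were higher and 15 lower. At start sites 8 of its 16 regions were lower and none higher, where 39.4% of all start-site regions were lower and 8.01% higher, with 0 higher also at an unadjusted p under 0.05 of the authors' DESeq2 test, but on centring 1 was higher and 5 lower. With GSI, 13 of its 78 tested regions were higher and 6 lower in the authors' deposited table, 16.7% higher beside a background of 6.62%. The GSI median of the stronger regions was only -9.79e-04, so centring could hardly change these counts, and they stayed the same. With the trend subtracted, 1 Slc38a1 region was higher and 1 lower with GSI, against 2 and 1 as deposited. The deposited calls with GSI came from 10 genes, and without Slc38a1 11 were higher and 5 lower.

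Slc7a11 encodes the light chain of the cystine and glutamate antiporter, which imports cystine for glutathione synthesis, and it had the most regions of any member, 34, reaching 386773 bp from its start site. The region over its start site (chr3:50244778-50248748 on mm9, base mean 1198) fell by 0.84 ± 0.09 with apicidin (adjusted p = 1.22e-18, DESeq2) and rose by 0.39 ± 0.09 with GSI (adjusted p = 1.71e-04) in the authors' deposited table. Apicidin minus GSI was -1.23 ± 0.13 (adjusted p = 2.10e-19, normal test over all regions), the smallest p of this difference among the 956 members. With the trend subtracted, the start site stood at -0.67 with apicidin (adjusted p = 2.47e-12) and 0.38 with GSI (adjusted p = 3.63e-04).

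The called Slc7a11 regions away from the start site had smaller changes with apicidin. A weak region 2901 bp away (base mean 31.2) had -1.05 ± 0.44 with apicidin and was not called (adjusted p = 0.0675) in the authors' deposited table, while its difference from GSI was -1.74 ± 0.60 (adjusted p = 0.0453). A region 216178 bp from the start site fell by 0.26 ± 0.10 with apicidin (adjusted p = 0.0416) and rose by 0.41 ± 0.10 with GSI (adjusted p = 5.85e-04) in the authors' deposited table. On centring its apicidin value did not pass (-0.16, adjusted p = 0.271). The strongest region, 230365 bp away with a base mean of 1587, was called in neither comparison there (-0.04 ± 0.08 and 0.09 ± 0.08). Along the locus 3 regions were lower and none higher with apicidin as deposited, or 1 lower on centring, and 3 of 11 tested were higher with GSI. The farthest of the called regions, 385098 bp away, rose by 0.67 ± 0.24 with GSI (adjusted p = 0.0432), as the authors' deposited table gives it, and lay 7443 bp from a region assigned to Ccrn4l. Which gene such a region serves was not tested.

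The promoter of Slc7a11 is shown because its letters hold the amino acid response element on both strands. These are the 250 bases before the RefSeq start site on GRCm38.p6 (chr3:50443614-50443863, minus strand, a build other than that of the table), written 5′ to 3′, with capitals for TGGGAA (the RBPJ core) and for TTGCATCA or its reverse complement TGATGCAA (the amino acid response element).
Slc7a11: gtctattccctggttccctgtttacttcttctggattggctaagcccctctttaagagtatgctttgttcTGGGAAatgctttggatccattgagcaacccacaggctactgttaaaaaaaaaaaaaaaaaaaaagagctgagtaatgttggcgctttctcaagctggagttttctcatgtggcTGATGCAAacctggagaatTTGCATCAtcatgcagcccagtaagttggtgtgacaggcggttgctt
The reverse copy begins 66 bases and the forward copy 47 bases before the start site, and TGGGAA begins 180 bases before it. Of the 200 genes, 154 matched the RefSeq table by symbol, with 204 promoters, and 3 of these (1.47%) held TTGCATCA on either strand, against 0.791% of 32851 mouse promoters of the same length. The other promoters with it belong to Slc50a1 and Slc7a7. The E-box CACGTG, on either strand, was in 10.8% of the member promoters against 6.02% of all, and CCAAT in 30.9% against 33.8%. None of the 4 motifs contains another, and a match describes letters, not a bound site.

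Carriers known as targets of the amino acid response were taken as a list of 9 genes, all with a region. By strongest region, 5 of the 9 were lower and none higher with apicidin in the authors' deposited table, where 33.5% of all genes were lower and 12% higher, with an unadjusted p under 0.05 (DESeq2) for 7 lower and 0 higher. The list median was -0.30, against -0.18 over all genes of the authors' deposited table. On centring 4 were lower, and with the trend subtracted 3, none being higher in either case. The 5 were Slc7a5, Slc6a9, Slc7a1, Slc3a2 and Slc38a2. In this count Slc7a11 stands by its distal strongest region, which was not called. By the region nearest the start site 5 were again lower and none higher with apicidin, but not the same 5. Slc7a11 joined them by its start-site region, and Slc7a5 was no longer among them. With GSI 1 of 8 tested was higher and 1 lower by strongest region, beside 7.74% and 6.8% of all genes, and by the nearest region 2 were higher and 1 lower.

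Slc7a5 encodes the light chain of the carrier of large neutral amino acids, among them leucine, and Slc3a2 the heavy chain that this carrier and the cystine antiporter share. The strongest Slc7a5 region, 4787 bp from the start site, fell by 0.63 ± 0.07 with apicidin (adjusted p = 5.54e-17), and -0.02 ± 0.07 was its value with GSI (adjusted p = 0.888) in the authors' deposited table. Apicidin minus GSI was -0.60 ± 0.10 there (adjusted p = 1.82e-07). Of its 10 regions, 5 were lower and none higher with apicidin as deposited, while on centring 5 were lower and 1 higher. At a region 28520 bp away the values were -1.20 ± 0.23 with apicidin (adjusted p = 3.68e-06) and 0.27 ± 0.22 with GSI in the authors' deposited table. The strongest region of Slc3a2 fell by 0.30 ± 0.08 with apicidin (adjusted p = 0.00135) and stood at 0.16 ± 0.08 with GSI (adjusted p = 0.188) in the authors' deposited table. With the trend subtracted the Slc3a2 value with apicidin was -0.17 (adjusted p = 0.138), which did not pass.

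Carriers of fewer amino acids were lower or not called with apicidin. Slc6a9, a glycine carrier, fell by 0.58 ± 0.13 (adjusted p = 8.26e-05), and Slc7a1, which carries arginine and lysine, fell by 0.56 ± 0.12 (adjusted p = 5.51e-05), both by strongest region in the authors' deposited table. With GSI neither was called (-0.20 ± 0.13 and -0.10 ± 0.12 in the authors' deposited table). Slc1a4, a carrier of alanine, serine and cysteine, was called in neither comparison there (-0.27 ± 0.13 and -0.10 ± 0.14). Slc7a3, another carrier of cationic amino acids, stands by a region 47176 bp from its start site. That region was not called with apicidin (-0.77 ± 0.34, base mean 54.6) in the authors' deposited table and was too weak to be tested with GSI.

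The sodium-coupled carriers of glutamine and other neutral amino acids, Slc38a1 and Slc38a2, had opposite signs under the treatments at their start sites. Slc38a1, at chr15:96467540-96475714 with a base mean of 5359, fell by 0.19 ± 0.05 with apicidin (adjusted p = 0.00330) and rose by 0.15 ± 0.05 with GSI (adjusted p = 0.0393) in the authors' deposited table. Slc38a2 fell by 0.20 ± 0.07 with apicidin (adjusted p = 0.0136) and rose by 0.20 ± 0.07 with GSI (adjusted p = 0.0207) there. Apicidin minus GSI was -0.34 ± 0.08 (adjusted p = 3.08e-04) for Slc38a1 and -0.40 ± 0.09 (adjusted p = 5.51e-04) for Slc38a2. These changes are small, and on centring the apicidin values were -0.09 and -0.10, which did not pass (adjusted p = 0.245 and 0.294). With the trend subtracted the GSI value of Slc38a1 did not pass either (0.13, adjusted p = 0.0968).

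Slc1a5, which exchanges glutamine for other neutral amino acids, had the other sign. Its start-site region fell by 0.34 ± 0.09 with GSI (adjusted p = 0.00135) and stood at 0.02 ± 0.08 with apicidin in the authors' deposited table, a difference of 0.35 ± 0.12 (adjusted p = 0.0372). Slc7a6, an exchanger of cationic and neutral amino acids, fell by 0.42 ± 0.12 with GSI (adjusted p = 0.00484) and had -0.07 ± 0.11 with apicidin in the authors' deposited table. Of the glutamine carriers in these sentences, then, Slc38a1 and Slc38a2 were higher and Slc1a5 lower with GSI.

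Within the Slc38a1 locus, which had 30 regions, the sign changed from region to region. With apicidin 3 were higher and 2 lower, and with GSI 2 of 15 tested were higher and 1 lower in the authors' deposited table. A region 6595 bp from the start site rose by 0.37 ± 0.07 with GSI (adjusted p = 1.62e-05), whereas one 47855 bp away fell by 0.67 ± 0.19 (adjusted p = 0.00665) in the authors' deposited table. On centring 4 were higher and none lower with apicidin.

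Slc38a11, a carrier gene of the same family, held the largest called rise with GSI of the amino acid group. Its region 16037 bp from the start site (base mean 101) rose by 1.01 ± 0.28 (adjusted p = 0.00352), and a stronger one 20539 bp away (base mean 750) by 0.68 ± 0.11 (adjusted p = 5.21e-08) in the authors' deposited table. With apicidin neither was called there (0.65 ± 0.27 and 0.03 ± 0.11). On centring the first passed with apicidin (0.75, adjusted p = 0.0302). Slc6a19, a neutral amino acid carrier named after its values were seen, rose with both treatments 914 bp from its start site, by 0.30 ± 0.09 with apicidin (adjusted p = 0.00536) and 0.51 ± 0.09 with GSI (adjusted p = 1.09e-06) in the authors' deposited table.

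The carriers by which T cells take up nutrients were a list of 16 genes, of which Slc43a1 had no region. By strongest region, 3 of 15 were higher and 6 lower with apicidin in the authors' deposited table, beside 12% and 33.5% of all genes, but 4 higher and 3 lower both on centring and with the trend subtracted. With GSI, 2 of 14 tested were higher and 3 lower, beside 7.74% and 6.8%, and with the trend subtracted 1 and 3. The amino acid members of this list are given above, and the rest carry glucose, lactate, nucleosides and nucleobases, folate and choline.

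Glucose enters T cells through the carriers of Slc2a1 and Slc2a3. Slc2a1 was lower with apicidin at 1 of its 14 regions and higher at none, also on centring and with the trend subtracted. No Slc2a1 region was called with GSI. The strongest region of Slc2a1 lay 15310 bp from the start site. This strongest region was called in neither comparison (0.06 ± 0.09 with apicidin and -0.11 ± 0.09 with GSI in the authors' deposited table). That of Slc2a3, 16592 bp from the start site, rose by 0.58 ± 0.15 with apicidin (adjusted p = 7.54e-04) and stood at 0.09 ± 0.16 with GSI in the authors' deposited table. With apicidin 3 of its 6 regions were higher and none lower. Lactate and pyruvate are carried by the proteins of Slc16a1 and Slc16a3. Neither was called by its strongest region in the authors' deposited table, where apicidin gave 0.15 ± 0.08 (adjusted p = 0.142) and 0.11 ± 0.14 (adjusted p = 0.642). The Slc16a1 value passed on centring, at 0.25 (adjusted p = 0.00641).

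Slc29a1, which encodes an equilibrative nucleoside carrier, was higher with apicidin and lower with GSI. Its start-site region (base mean 1755) rose by 0.24 ± 0.08 with apicidin (adjusted p = 0.0128) and fell by 0.23 ± 0.08 with GSI (adjusted p = 0.0360) in the authors' deposited table (difference 0.47 ± 0.11, adjusted p = 9.48e-04). Slc44a2, of the choline carrier family, rose by 0.61 ± 0.08 with apicidin at its strongest region (adjusted p = 2.64e-11) and stood at -0.03 ± 0.09 with GSI in the authors' deposited table. At its region 4637 bp from the start site it rose by 0.41 ± 0.10 with apicidin (adjusted p = 3.27e-04) and fell by 0.43 ± 0.10 with GSI (adjusted p = 6.63e-04) in the authors' deposited table, a difference of 0.84 ± 0.14 (adjusted p = 4.86e-07).

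Slc19a1, the reduced folate carrier, fell by 0.67 ± 0.25 with apicidin (adjusted p = 0.0318), as the authors' deposited table gives it, but did not pass on centring (-0.57, adjusted p = 0.0801). Its value with GSI was -0.58 ± 0.26 (adjusted p = 0.124) in the authors' deposited table. Slc43a3, a purine nucleobase carrier, was weak (base mean 44.7) and not called with apicidin (0.23 ± 0.36) in the authors' deposited table.

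**Figure D3:**
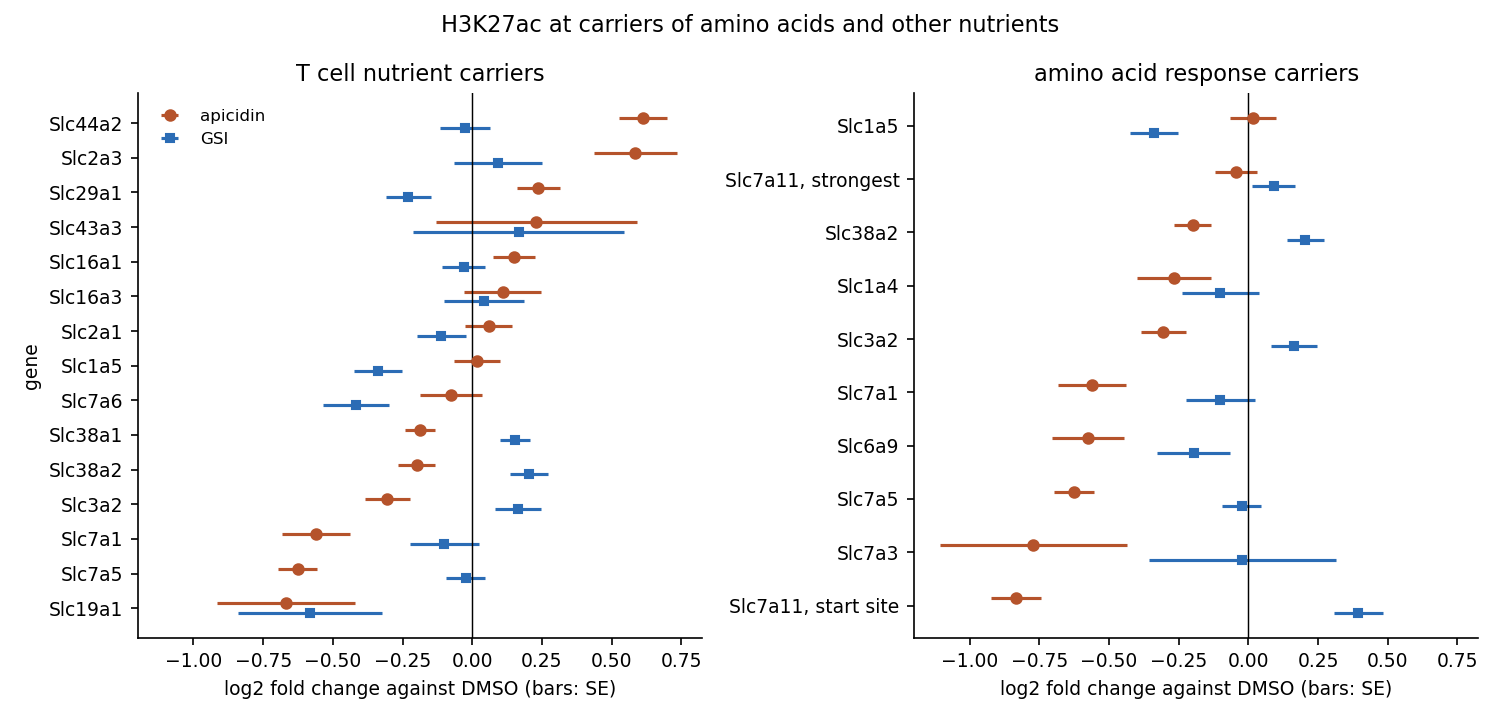
Log2 fold change of H3K27ac against DMSO (horizontal axis, bars ± SE, 2 libraries per condition) for each gene of the lists of T cell nutrient carriers and amino acid response carriers, by strongest region, with the start site of Slc7a11 added. Circles are apicidin and squares GSI, and the start site of Slc7a11 lies at -0.84 with apicidin and 0.39 with GSI.

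Regulators and targets of the amino acid response that are not carriers were a list of 13 genes, of which Asns had no region. By strongest region 1 of 12 was higher and 5 lower with apicidin in the authors' deposited table, beside 12% and 33.5% of all genes, or 1 and 3 on centring. With GSI 3 of 11 tested were higher and none lower there, beside 7.74% and 6.8%, with 0 lower also at an unadjusted p under 0.05 (DESeq2), and with the trend subtracted 2 were higher. Chac1, which encodes a glutathione-degrading enzyme, fell by 1.50 ± 0.16 with apicidin (adjusted p = 3.17e-19), and Trib3, a pseudokinase gene of the same response, fell by 2.16 ± 0.25 (adjusted p = 1.00e-15) in the authors' deposited table. Sesn2, which encodes a leucine sensor, rose by 0.73 ± 0.16 with GSI (adjusted p = 8.40e-05) there.

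Of 16 genes for partners of carriers and for amino acid sensing, 15 had a region, and 2 were higher and 1 lower with apicidin by strongest region in the authors' deposited table, beside 12% and 33.5% of all genes, or 5 and 1 on centring. With GSI 4 of 14 tested were higher and none lower, beside 7.74% and 6.8%, with 2 lower at an unadjusted p under 0.05 (DESeq2), but with the trend subtracted 3 were higher and 1 lower. Arrdc3, an arrestin-like gene, fell by 0.92 ± 0.06 with apicidin (adjusted p = 1.03e-47) and rose by 0.17 ± 0.06 with GSI (adjusted p = 0.0340) in the authors' deposited table. The GSI value of Arrdc3 did not pass with the trend subtracted (0.15, adjusted p = 0.0781). Txnip, whose arrestin-like product removes glucose carriers from the surface, rose by 0.28 ± 0.06 with GSI (adjusted p = 1.52e-04) there. Emb, whose product chaperones lactate carriers, rose by 0.42 ± 0.11 with GSI (adjusted p = 0.00120) in the authors' deposited table.

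The zinc carriers (58 regions of 18 genes), which move zinc into the cytosol or out of it, were lower at 18 regions and higher at 3 with apicidin in the authors' deposited table, 31.0% lower beside the background of 14.1%. On centring and with the trend subtracted 14 were lower and 4 higher. By strongest region 7 of 18 genes were lower and none higher, beside 33.5% and 12% of all genes, with an unadjusted p under 0.05 (DESeq2) for 10 lower and 1 higher. Slc39a11 held 9 of the 18 lower regions, and without it 9 of 34 were lower and 3 higher. With GSI 2 of 27 tested regions were lower, both at Slc39a11, and none higher. The lower share, 7.41%, was near the 7.17% of all tested regions, of which 6.62% were higher. At an unadjusted p under 0.05 (DESeq2), 9 of all 58 were lower and 0 higher with GSI.

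Slc39a13 had the smallest p of the zinc group with apicidin, and fell by 0.77 ± 0.10 at a region 11426 bp from its start site (adjusted p = 8.24e-13), where GSI gave 0.15 ± 0.10, in the authors' deposited table. The difference was -0.93 ± 0.14 (adjusted p = 1.04e-08). Named after their values were seen, the start-site region of Slc39a10 fell by 0.64 ± 0.09 (adjusted p = 7.12e-11) and that of Slc30a4 fell by 0.99 ± 0.15 (adjusted p = 2.92e-09) with apicidin in the authors' deposited table. Slc39a10 encodes an importer of zinc and Slc30a4 an exporter from the cytosol.

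Slc39a11 had 24 regions, 9 of them lower with apicidin and none higher, or 8 on centring, and 2 of 8 tested lower with GSI in the authors' deposited table. The largest called fall among its stronger regions (base mean not under the median) lay 54248 bp from the start site, at -1.05 ± 0.20 with apicidin (adjusted p = 1.26e-06) and -0.47 ± 0.20 with GSI (adjusted p = 0.0982) in the authors' deposited table. A region 73509 bp away was called with GSI (-0.57 ± 0.14, adjusted p = 0.00131) and not with apicidin (-0.32 ± 0.14, adjusted p = 0.0782) there. The difference between the treatments did not pass at either region (adjusted p = 0.233 and 0.637).

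**Figure D4:**
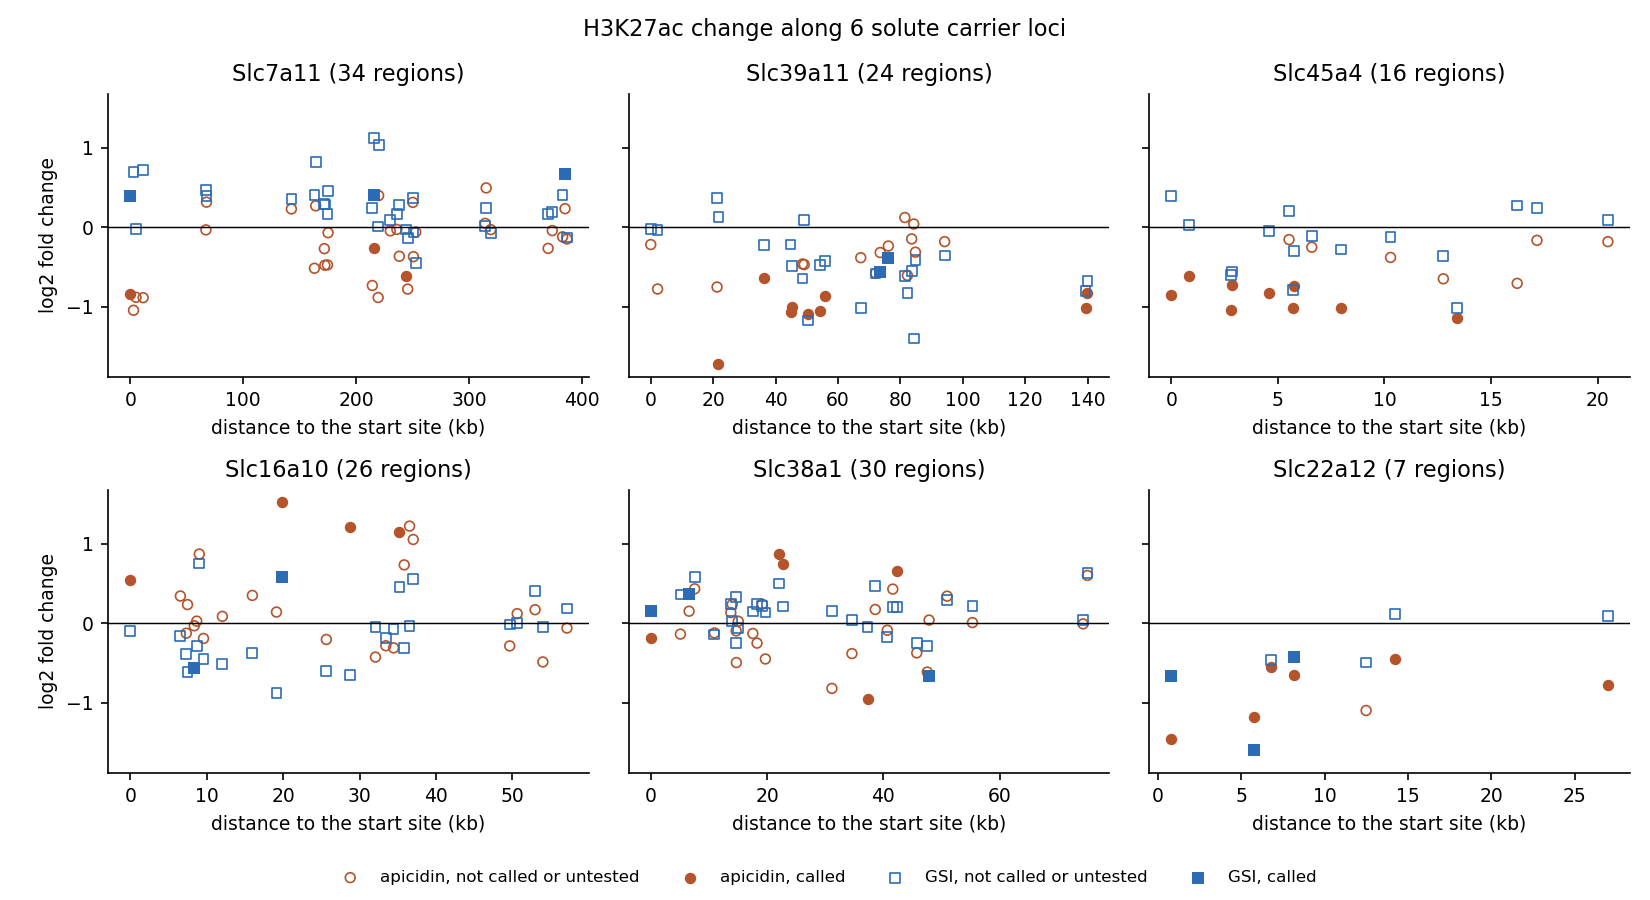
Log2 fold change of H3K27ac against DMSO along the loci of Slc7a11, Slc39a11, Slc45a4, Slc16a10, Slc38a1 and Slc22a12 (vertical axis), each region placed by its distance from the start site in kb (horizontal axis), with 1 marker shape and colour per treatment and called regions filled. Called regions of Slc39a11, Slc45a4 and Slc22a12 all lie below 0, while Slc7a11, Slc16a10 and Slc38a1 have called regions on both sides.

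The sugar carriers (101 regions of 19 genes) were lower at 23 regions and higher at 10 with apicidin in the authors' deposited table, 22.8% lower beside 14.1%, and 17 lower and 11 higher on centring. Slc45a4 held 9 of the lower regions, and without it 14 of 85 were lower and 10 higher. All 16 regions of Slc45a4, named after its values were seen, had negative fold changes with apicidin (-1.15 to -0.15), and none of its 10 tested regions was called with GSI in the authors' deposited table. Its start-site region fell by 0.86 ± 0.22 with apicidin (adjusted p = 8.36e-04) and stood at 0.40 ± 0.21 with GSI (adjusted p = 0.237) there, a difference of -1.26 ± 0.31 (adjusted p = 0.00123).

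Among the other sugar carriers Slc2a10, a glucose carrier gene, rose by 1.40 ± 0.22 with apicidin 4926 bp from its start site (adjusted p = 3.75e-09) and stood at -0.17 ± 0.24 with GSI in the authors' deposited table. Slc2a8, a glucose carrier of internal membranes, rose by 0.74 ± 0.09 with apicidin (adjusted p = 8.58e-14) at a region 48873 bp from its start site in the authors' deposited table, but a region assigned to Garnl3 lay 317 bp away. The start-site region of Slc2a8 itself fell by 0.78 ± 0.27 with apicidin (adjusted p = 0.0216) there, but did not pass on centring (-0.68, adjusted p = 0.0531). Slc37a3 rose at its start site by 0.84 ± 0.21 with apicidin (adjusted p = 5.68e-04) and by 0.76 ± 0.22 with GSI (adjusted p = 0.00523) in the authors' deposited table, 869 bp from a region of Rab19. A Slc37a3 region 28532 bp away rose by 0.96 ± 0.22 with apicidin (adjusted p = 1.95e-04) and stood at -0.15 ± 0.25 with GSI in the authors' deposited table.

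With apicidin Slc45a1, of the same family as Slc45a4, fell by 1.25 ± 0.32 at a region 70626 bp from its start site (adjusted p = 9.32e-04), and Slc37a2, of the sugar phosphate carriers, fell by 1.03 ± 0.27 at 6674 bp (adjusted p = 0.00104), in the authors' deposited table.

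With GSI 5 of 49 tested regions of the sugar group were lower and 2 higher in the authors' deposited table. These were 10.2% and 4.08%, beside 7.17% and 6.62% of all tested regions. Among the genes with falls were Slc5a9, of the sodium-coupled sugar carriers, and Slc2a4, the insulin-responsive glucose carrier. A Slc5a9 region 19555 bp from the start site fell by 0.58 ± 0.09 with GSI (adjusted p = 1.62e-08) and fell by 0.55 ± 0.09 with apicidin (adjusted p = 2.05e-08) in the authors' deposited table. Another, 83522 bp away, stood at -0.63 ± 0.10 and -0.50 ± 0.10 in the same order (adjusted p = 1.74e-08 and 3.31e-06 in the authors' deposited table). The strongest region of Slc2a4 fell by 0.65 ± 0.22 with GSI (adjusted p = 0.0325) and was not called with apicidin (-0.19 ± 0.21) in the authors' deposited table.

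The monocarboxylate, citrate and sulphate carriers (72 regions of 9 genes) were higher with apicidin at 10 regions and lower at 1 in the authors' deposited table, 13.9% higher beside a background of 9.69%. On centring the counts were 13 and 1, and without Slc16a10 they were 6 and 1 of 46. With GSI 3 of 27 tested were higher and 2 lower, or 2 and 3 with the trend subtracted. As deposited these were 11.1% and 7.41%, beside 6.62% and 7.17% of all tested regions. Slc16a10 encodes a carrier of aromatic amino acids, and 4 of its 26 regions were higher with apicidin and none lower.

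The Slc16a10 region at chr10:39881881-39885539, 19820 bp from the start site, rose by 1.52 ± 0.12 with apicidin (adjusted p = 1.08e-36) and by 0.58 ± 0.12 with GSI (adjusted p = 6.97e-05) in the authors' deposited table. A region 8373 bp away with a base mean of 1364 was not called with apicidin (-0.03 ± 0.08) and fell by 0.57 ± 0.08 with GSI (adjusted p = 2.16e-10) there. Both regions differed between the treatments, by 0.94 ± 0.17 (adjusted p = 1.86e-06) and 0.53 ± 0.11 (adjusted p = 7.47e-05). With GSI the locus thus held a called rise and a called fall, and with apicidin its called regions were all higher.

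Slc13a3, a carrier of dicarboxylates such as succinate, rose by 1.45 ± 0.17 with apicidin 18662 bp from its start site (adjusted p = 3.68e-16) and stood at 0.17 ± 0.18 with GSI in the authors' deposited table. Its region (chr2:165278061-165280034) and the Slc2a10 region (chr2:165334405-165336561) lie on the same stretch of chromosome 2. Slc16a6 had opposite signs with apicidin at its start site and away from it. The start-site region (base mean 3020) fell by 0.34 ± 0.06 with apicidin (adjusted p = 3.16e-06) and rose by 0.18 ± 0.06 with GSI (adjusted p = 0.0388) in the authors' deposited table. The start-site value with GSI did not pass with the trend subtracted (0.16, adjusted p = 0.0882). At 21137 bp it rose by 1.17 ± 0.14 with apicidin (adjusted p = 6.21e-16) and 0.68 ± 0.14 with GSI (adjusted p = 5.30e-05) in the authors' deposited table. Of the 24 regions of Slc16a1, 2 were higher with apicidin and 1 lower with GSI (-0.61 ± 0.22, adjusted p = 0.0412, in the authors' deposited table).

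The mitochondrial carriers (160 regions of 36 genes), which exchange metabolites over the inner membrane, were higher at 12 regions and lower at 13 with apicidin in the authors' deposited table, beside 9.69% and 14.1% of all regions, or 16 and 7 on centring. At start sites 10 of 25 were lower and none higher, a lower share near the 39.4% of all start-site regions (8.01% of which were higher), with 12 lower and 3 higher at an unadjusted p under 0.05 (DESeq2), but on centring 4 were lower and 3 higher, and with the trend subtracted 2 and 4. Off start sites 12 of 135 were higher and 3 lower. With GSI 1 of 69 tested was lower and none higher, with 8 higher and 5 lower when p was left unadjusted (under 0.05), a share called of 1.45% beside the background of 13.8%.

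Of 16 core mitochondrial carriers 15 had a region, and by strongest region 2 were higher and 5 lower with apicidin in the authors' deposited table, near the 12% and 33.5% of all genes, but 4 and 3 on centring and 5 and 2 with the trend subtracted. Slc25a3, the phosphate carrier that feeds ATP synthase, fell by 0.49 ± 0.09 (adjusted p = 1.81e-06) at its start site in the authors' deposited table. Slc25a10, the dicarboxylate carrier, fell by 0.45 ± 0.09 (adjusted p = 1.80e-05) at a region 17795 bp from its start site in the authors' deposited table. Slc25a1, the citrate carrier, fell by 0.41 ± 0.11 (adjusted p = 9.87e-04) there, but did not pass with the trend subtracted (-0.24, adjusted p = 0.0913). With GSI 0 of 14 tested were called, beside 14.5% of all tested genes, with 1 higher and 1 lower when p was left unadjusted (under 0.05) (DESeq2).

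The nucleotide sugar carriers (117 regions of 20 genes), which supply the Golgi and endoplasmic reticulum, were higher at 13 regions and lower at 9 with apicidin, and at 4 and 2 of 46 tested with GSI, in the authors' deposited table. These were 11.1% and 7.69% with apicidin, beside 9.69% and 14.1% of all regions, and 8.70% and 4.35% with GSI, beside 6.62% and 7.17%. Slc35f4 held 3 of the higher regions in each, and without it the counts were 10 and 9 with apicidin and 1 and 2 with GSI. The Slc35f4 region 126544 bp from the start site (chr14:50272057-50273766) had the largest called rise with apicidin among the 467 stronger members, 1.89 ± 0.19 (adjusted p = 8.92e-21), with 0.73 ± 0.20 with GSI (adjusted p = 0.00397) in the authors' deposited table. Another, 69405 bp away, rose by 1.09 ± 0.28 with apicidin (adjusted p = 9.34e-04) and 1.50 ± 0.29 with GSI (adjusted p = 5.05e-06) there.

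Slc35b1, a nucleotide carrier gene of the endoplasmic reticulum, had the smallest p with GSI of all members. The region 5028 bp from its start site fell by 0.78 ± 0.09 with GSI (adjusted p = 1.33e-16) and stood at -0.20 ± 0.08 with apicidin (adjusted p = 0.0586) in the authors' deposited table. Named after their values were seen, Slc35d1 fell by 0.94 ± 0.11 at its start site with apicidin (adjusted p = 4.44e-16), and Slc35b4 rose at its start site by 0.34 ± 0.06 with GSI (adjusted p = 8.25e-08) and 0.22 ± 0.06 with apicidin (adjusted p = 7.71e-04), in the authors' deposited table. Slc35b2, which supplies the sulphate donor of the Golgi, rose by 1.07 ± 0.28 with apicidin (adjusted p = 0.00102) in the authors' deposited table, at a region 2018 bp from one of Hsp90ab1.

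The exchangers of sodium, protons, calcium, chloride and bicarbonate (59 regions of 19 genes) were lower at 15 regions and higher at 3 with apicidin in the authors' deposited table, 25.4% lower beside 14.1%, or 10 lower and 4 higher on centring. Without Slc12a7, of the potassium and chloride cotransporters, 12 of 51 were lower and 3 higher. With GSI 0 of 29 tested were called (DESeq2), beside 13.8% of all tested regions, with 2 higher and 5 lower when p was left unadjusted (under 0.05). Slc12a3, the sodium and chloride cotransporter of the kidney, fell by 0.86 ± 0.11 with apicidin (adjusted p = 4.74e-14) in the authors' deposited table, at a region 24789 bp from its start site and 5647 bp from one of Herpud1. Slc9a8, a sodium and proton exchanger of the Golgi, fell by 1.06 ± 0.30 with apicidin at 24035 bp (adjusted p = 0.00310) and rose by 0.87 ± 0.20 at 2002 bp (adjusted p = 1.25e-04) in the authors' deposited table.

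The folate, vitamin, nucleoside and choline carriers (77 regions of 17 genes) were higher at 7 regions and lower at 9 with apicidin in the authors' deposited table, 9.09% and 11.7% beside 9.69% and 14.1% of all regions, or 7 and 7 on centring. With GSI 3 of 34 tested were lower and none higher, 8.82% lower beside 7.17%, with 1 higher and 6 lower when p was left unadjusted (under 0.05) (DESeq2). Slc44a1, a choline carrier, fell by 1.10 ± 0.21 with apicidin (adjusted p = 3.15e-06) and fell by 1.20 ± 0.22 with GSI (adjusted p = 2.83e-06) at 41881 bp from its start site in the authors' deposited table. Slc29a3, a nucleoside carrier of lysosomes named after its values were seen, was lower with apicidin at 3 regions and higher at none, and its start site fell by 0.72 ± 0.11 (adjusted p = 1.09e-09) in the authors' deposited table.

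The organic ion, bile acid and urea carriers (64 regions of 13 genes) were higher at 8 regions and lower at 8 with apicidin in the authors' deposited table. These were 12.5% each, beside 9.69% and 14.1% of all regions. With GSI 6 of 33 tested were higher and 3 lower, 18.2% and 9.09% beside 6.62% and 7.17%. Slc22a12, a urate carrier, held 6 of the lower regions with apicidin and all 3 with GSI, and without it the counts were 8 and 2 with apicidin and 6 and 0 of 27 with GSI. Its region 5753 bp from the start site fell by 1.18 ± 0.18 with apicidin (adjusted p = 3.40e-09) and fell by 1.60 ± 0.20 with GSI (adjusted p = 2.53e-13) in the authors' deposited table. A region 805 bp away stood at -1.46 ± 0.19 and -0.66 ± 0.19 in the same order (adjusted p = 4.02e-13 and 0.00491 in the authors' deposited table).

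Slc22a3, an organic cation carrier, was higher at 3 of 14 regions with apicidin and at 3 with GSI. At 2883 bp from its start site it rose by 0.28 ± 0.08 with apicidin (adjusted p = 0.00243) and 0.34 ± 0.08 with GSI (adjusted p = 3.34e-04) in the authors' deposited table. Slc22a8, an organic anion carrier, fell by 1.18 ± 0.25 with apicidin (adjusted p = 3.94e-05) at 39175 bp in the authors' deposited table, where 1 of its 9 regions was higher and 1 lower with apicidin. Slc22a16, a carnitine carrier, rose at 45307 bp with GSI by 0.93 ± 0.27 (adjusted p = 0.00571) and with apicidin by 0.69 ± 0.26 (adjusted p = 0.0364) in the authors' deposited table. The difference between the treatments did not pass at this Slc22a16 region (adjusted p = 0.887, normal test). Of the 15 Slc22a16 regions 4 were higher and 1 lower with apicidin.

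The smaller groups had few regions, so their shares move much with 1 call. Over all regions 9.69% were higher and 14.1% lower with apicidin, and 13.8% of those tested were called with GSI. Of the 26 regions for carriers of iron, copper, magnesium and haem, 2 were higher and 3 lower with apicidin in the authors' deposited table, or 2 and 0 on centring, and with GSI 0 of 15 tested were called (DESeq2), with 0 higher and 2 lower when p was left unadjusted (under 0.05). Of the 12 phosphate carrier regions 3 (25%) were lower with apicidin, all at Slc20a2, a sodium and phosphate cotransporter whose start site fell by 0.63 ± 0.09 (adjusted p = 1.23e-10) in the authors' deposited table. Of the 9 regions for vesicular and lysosomal carriers of organic anions and amines, 2 were higher and 1 lower with apicidin there. Among these Slc17a8, a vesicular glutamate carrier, rose by 1.44 ± 0.30 with apicidin (adjusted p = 2.58e-05) in the authors' deposited table, at its single region (base mean 67.8). None of the 5 regions for fatty acid carriers was called with apicidin, with 0 higher and 2 lower when p was left unadjusted (under 0.05) (DESeq2).

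The largest differences between the treatments that passed the test were at weak regions. Slc28a1, a concentrative nucleoside carrier, fell by 2.00 ± 0.49 with apicidin (adjusted p = 4.04e-04) at a region with a base mean of 28.4 in the authors' deposited table, and the difference from GSI was -2.03 ± 0.66 (adjusted p = 0.0274). Slc6a6, the taurine carrier, fell by 1.87 ± 0.59 (adjusted p = 0.00885, base mean 19.6), and Slc46a3, a lysosomal carrier, rose by 1.53 ± 0.40 (adjusted p = 0.00110, base mean 42.6), in the authors' deposited table. None of these 3 regions was strong enough to be tested with GSI, and their SEs are several times those of the stronger regions above.

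Carriers that bear other symbols were taken beside these. Of 23 genes of the solute carrier superfamily with names such as Mfsd2a or Mpc1, 16 had a region, and 4 were lower and none higher with apicidin by strongest region in the authors' deposited table (6 lower and 2 higher at an unadjusted p under 0.05, DESeq2), where 33.5% of all genes were lower and 12% higher, but 3 and 3 on centring. Of 23 ABC transporters, which use ATP, 16 had a region, and 3 were higher and 3 lower with apicidin in the authors' deposited table, beside the same shares, or 5 and 3 on centring. Abcg1, a cholesterol exporter, rose by 0.67 ± 0.09 with apicidin (adjusted p = 2.31e-11), and Mfsd2a, a lysophospholipid carrier, fell by 0.54 ± 0.08 (adjusted p = 3.63e-09) in the authors' deposited table.

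The deposited table marks 19 solute carrier regions of 18 genes as overlapping RBPJ, profiled in the DMSO cells, 1.99% of the members against 2.73% of all regions in the authors' deposited table, and 14 of the 19 covered a start site. With GSI 0 of the 19 were called (DESeq2), with 1 higher and 4 lower when p was left unadjusted (under 0.05), whereas 4.66% of all tested RBPJ-overlapping regions were higher and 10.5% lower (15.2% in all). Their fold changes with GSI lay between -0.33 and 0.21 in the authors' deposited table, and with the trend subtracted 2 were lower. The smallest adjusted p was that of Slc16a5, a monocarboxylate carrier gene, whose value in the authors' deposited table was -0.17 ± 0.06 (adjusted p = 0.0554). It passed with the trend subtracted (-0.19, adjusted p = 0.0239).

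With apicidin 2 of the 19 RBPJ-overlapping regions were higher and 6 lower in the authors' deposited table, where 9.1% and 36.9% of all such regions were (46% in all), but 4 and 4 on centring. Slc11a2, which encodes an iron importer, rose by 0.31 ± 0.06 (adjusted p = 6.83e-06) and stood at -0.16 ± 0.06 with GSI (adjusted p = 0.0654) in the authors' deposited table. Its GSI value passed with the trend subtracted (-0.19, adjusted p = 0.0281), and the region lay 119 bp from one of Gm5475. Slc25a15, the mitochondrial ornithine carrier, fell by 0.51 ± 0.14 with apicidin (adjusted p = 0.00174) in the authors' deposited table. Slc7a6os, which is not a carrier gene, fell by 0.44 ± 0.12 (adjusted p = 0.00219) there, but did not pass with the trend subtracted (-0.29, adjusted p = 0.0680).

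**Figure D5:**
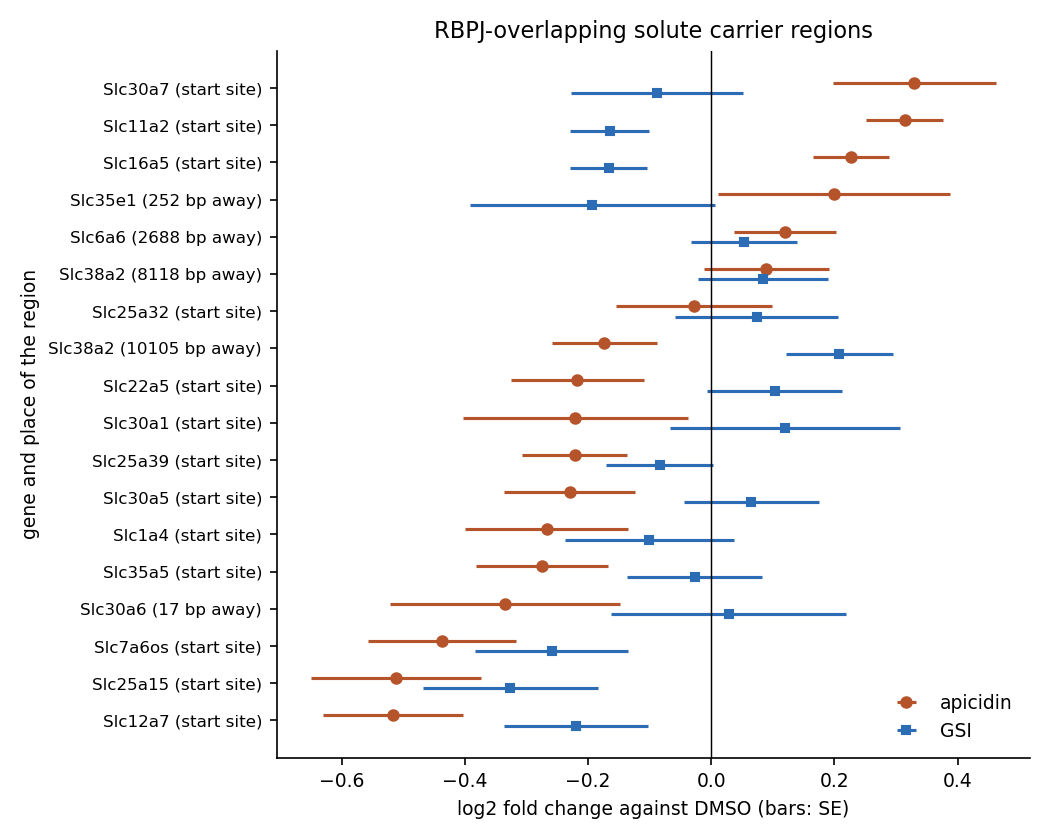
Log2 fold change of H3K27ac against DMSO (± SE, 2 libraries per condition) for 18 of the 19 solute carrier regions that are marked as overlapping RBPJ, profiled in DMSO cells, with apicidin and GSI shown apart. With GSI the 18 plotted regions lie between -0.33 and 0.21 and none is called.

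The letters TGGGAA, on either strand, were in 3 of 12 RefSeq promoters (25%) of the genes whose RBPJ-overlapping region covered the start site, in 18.6% of all 204 member promoters and in 21.6% of the 32851 mouse promoters. The promoters of these 3 genes are shown because they hold the letters of the RBPJ core and their start-site region is marked as overlapping RBPJ. The mark is given for a whole H3K27ac region, so it does not place RBPJ within these bases. Each is the 250 bases before the RefSeq start site on GRCm38.p6, minus strand, 5′ to 3′, with TGGGAA or its reverse complement TTCCCA in capitals, at chr8:106210934-106211183 for Slc7a6os, chr11:20332714-20332963 for Slc1a4 and chr13:100833428-100833677 for Slc30a5, a zinc carrier of the secretory pathway.
Slc7a6os: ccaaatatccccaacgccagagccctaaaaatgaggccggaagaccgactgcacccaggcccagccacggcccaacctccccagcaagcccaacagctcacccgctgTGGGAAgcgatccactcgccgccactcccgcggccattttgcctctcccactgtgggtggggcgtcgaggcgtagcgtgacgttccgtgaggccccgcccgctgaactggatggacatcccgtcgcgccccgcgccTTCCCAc
Slc1a4: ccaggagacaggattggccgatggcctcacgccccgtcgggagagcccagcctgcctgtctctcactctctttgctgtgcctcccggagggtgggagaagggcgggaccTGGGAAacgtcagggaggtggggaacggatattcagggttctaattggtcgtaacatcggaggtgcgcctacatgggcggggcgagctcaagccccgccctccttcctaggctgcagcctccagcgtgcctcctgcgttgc
Slc30a5: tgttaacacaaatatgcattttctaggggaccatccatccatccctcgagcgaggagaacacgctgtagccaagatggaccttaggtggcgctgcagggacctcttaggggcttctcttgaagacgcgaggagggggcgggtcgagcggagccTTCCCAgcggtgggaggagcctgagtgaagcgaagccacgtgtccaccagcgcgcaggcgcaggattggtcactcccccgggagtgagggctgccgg
In Slc7a6os the letters begin 143 and 7 bases before the start site, in Slc1a4 141 and in Slc30a5 97. The start-site regions of Slc1a4 and Slc30a5 were called with neither treatment in the authors' deposited table, at -0.27 ± 0.13 and -0.23 ± 0.11 with apicidin and -0.10 ± 0.14 and 0.06 ± 0.11 with GSI. That of Slc7a6os stood at -0.26 ± 0.12 with GSI there. TGGGAA is also in the promoter of Slc7a11, whose start-site region is not marked as overlapping RBPJ in the deposited table.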

How the data were processed

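H3K27ac and RBPJ were profiled by ChIP-seq in Beko cells, and the values used here come from 1 table of 56342 regions on mm9. Per the submitters' processing notes FastQC, Bowtie2, SAMtools and deepTools were used, and how the regions were called is not recorded in the labels or the file header. Per the file headers, the authors ran DESeq2 for each treatment. Each region has a deposited base mean, a signal of mean normalised reads, and a deposited log2 fold change with its SE, with DMSO taken to be the reference. The deposited Wald statistic, a score, equalled fold over SE within 0.175%, and the deposited p-values and adjusted p-values were used as they stand. The GSI adjusted p is missing in every region with a base mean under 72.1. Distance to the start site, the gene symbol and the RBPJ mark are as deposited. No value per library is in this table, so depth per library is unknown and no count test could be run.

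From these values the difference between the treatments was tested with a two-sided normal test and Benjamini-Hochberg adjustment over all regions, after a test on simulated data. The simulated folds were drawn independently, so that test did not cover the DMSO libraries that both comparisons share. Centring subtracted the median fold of the stronger regions (base mean not under the median), and the trend was a running median over 2001 regions, each with p recomputed from the deposited SE. Counts of role groups and lists stand beside those over all regions, with no test. Python 3.11.15, numpy 2.4.6, pandas 2.3.3, scipy 1.17.1 and matplotlib 3.10.9 were used. Promoters are from RefSeq on GRCm38.p6, matched by symbol.

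Regions named were, for each treatment, the 8 largest called rises and falls among those stronger regions, with 1 region per gene, the genes of the lists of T cell nutrient and amino acid response carriers, the 5 genes with the most regions, the smallest p of each role group, and the 5 largest differences each way, beside those stated to be named after their values were seen and the RBPJ-overlapping ones. Further regions of a named gene were also picked after their values were seen. Some genes that this rule names are not reported here. The members, lists and tests were chosen with earlier results of these data known. Alternatives were other thresholds, filters, distances and regions standing for a gene. No column of values per sample was left unused.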

Additional observations from a re-analysis of the deposited data

How the results depend on the processing

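No paired analysis was possible because the table used here holds no value per library, and for the same reason neither a replicate block nor leaving out each replicate was run. At an adjusted p under 0.01, 84 regions were lower with apicidin, 16 higher with GSI, and 4 genes higher and 7 lower with GSI. With a log2 fold change of at least 0.5 added, 30 genes were lower with apicidin, 13 regions were higher and 11 lower with GSI, and 4 genes higher and 4 lower with GSI. Centring left 38 genes lower with apicidin and subtracting the trend 34. Adjusting over all regions with no filter left 6 genes higher with GSI, and by the region nearest the start site 6 were lower with GSI. With a correlation of 0.5 between the folds, 69 regions were above 0 and 128 below in the difference. The other counts over all members stayed within 1.5 times under these alternatives, among them only regions within 50 kb of the start site, and no named value changed sign while called. Of the regions named by the rule, leaving aside those named after their values were seen, 66 kept their side of the threshold with apicidin on centring, 2 newly passed and 3 were lost, and the trend gave 66, 2 and 3. With GSI 60 kept it on centring, which could hardly move them because the shift there was only -9.79e-04. With the trend 58 kept it with GSI, 1 newly passed and 1 was lost. By the region nearest the start site instead of the strongest, the lists other than the amino acid response carriers changed with apicidin as follows: T cell nutrient carriers to 5 lower, core mitochondrial carriers to 1 higher and 4 lower, regulators of the amino acid response to 7 lower, carriers with other symbols to 2 lower, partners and sensors to 3 higher, and ABC transporters to 1 higher and 2 lower. With GSI the regulators changed to 2 higher, carriers with other symbols to 1 higher and 1 lower, partners and sensors to 3 higher, and ABC transporters to 0 higher. Leaving out the gene with most called regions, the nearest region for the lists, and centring for lists and role groups were chosen after seeing the data. Depth limits the weak members most, since 536 of the 956 were untested with GSI.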
